A study of Drosophila melanogaster with 2 samples.

Results

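The 10 genes described here are the complete set of histone deacetylase and sirtuin genes named in the fly annotation used: HDAC1, HDAC3, HDAC4, HDAC6, HDAC11, Sirt1, Sirt2, Sirt4, Sirt6 and Sirt7. They are 10 of 13968 protein-coding genes, and all matched Ensembl release 115 by current name. The family was chosen by the pooled peak signal at HDAC3, which had been seen among the strongest of these data, and its other genes were added by name. The HDAC3 values, and counts that include them, are therefore given as a description with no test. The peaks are those of Sry-beta, a zinc finger protein of Drosophila melanogaster, mapped by ChIP-seq. The series has 1 group, mixed-sex whole embryos collected at 0 to 12 h from a stable transgenic line whose Sry-beta ends in GFP, with biological replicates 2 and 4. The antibody is labelled Sry-β, and what drives the transgene is not given in the sources used here. One free-text label calls both libraries input controls, whereas the assay and antibody labels and the peak lists are those of a ChIP. All cells of the embryo are averaged, no second condition exists, and no p-value could be formed over 2 replicates.

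Histone deacetylases remove acetyl groups from lysines of histones and other proteins, which is generally linked to lower transcription. The HDAC proteins are zinc-dependent hydrolases. HDAC1 (also known as Rpd3) is the catalytic subunit of the Sin3, NuRD and CoREST corepressor complexes, and HDAC3 that of the SMRTER complex. HDAC4 is a class IIa enzyme that partners with the transcription factor Mef2. HDAC6 is mainly a cytoplasmic tubulin deacetylase, and HDAC11 is the class IV member. Sirtuins use NAD as a cosubstrate. Sirt1 (also known as Sir2) and Sirt6 act largely in the nucleus, Sirt4 is mitochondrial, and in mammals SIRT2 is mostly cytoplasmic and SIRT7 nucleolar.

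Sequences are shown first for the sites that carry the results, read from the release 6 assembly on the strand of the named gene, 5′ to 3′. Capitals mark exact matches, on either strand, of 7 short motifs and of the palindrome ATCGAT, which was added after the sequences were seen. AGAGATG is the core of the Sry-beta consensus, TATCGATA the DNA replication-related element (DRE), GGTCACAC a part of core promoter Motif 1, GAGAG the GAGA element, CACGTG an E-box and TATAAA the TATA box. The seventh, TAGCTA, is a palindrome. Of these, ATCGAT overlaps only the DRE, of which it is the inner part. The HDAC3 stretch is the whole sequence between the transcription start sites (TSSs) of HDAC3 and its head-to-head neighbour Hcs (chr3R:5474601-5474898, minus strand), because it holds the strongest peak of the family, with the pooled summit at base 210.
HDAC3 and Hcs: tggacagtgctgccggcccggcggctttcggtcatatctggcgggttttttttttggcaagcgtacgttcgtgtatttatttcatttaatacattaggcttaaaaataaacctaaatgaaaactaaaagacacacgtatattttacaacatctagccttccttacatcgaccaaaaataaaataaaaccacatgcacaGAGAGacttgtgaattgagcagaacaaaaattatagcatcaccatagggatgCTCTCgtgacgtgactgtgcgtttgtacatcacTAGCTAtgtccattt
The Sirt2 stretch covers 50 bp on either side of the second strongest promoter summit of the family (chr3R:20328178-20328278, plus strand).
Sirt2 summit: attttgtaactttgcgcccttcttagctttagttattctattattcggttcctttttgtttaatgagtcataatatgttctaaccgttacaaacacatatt
The Sirt6 stretch lies between the TSSs of Sirt6 and pont (chr3R:10261850-10262122, minus strand), with the summit at base 85.
Sirt6 and pont: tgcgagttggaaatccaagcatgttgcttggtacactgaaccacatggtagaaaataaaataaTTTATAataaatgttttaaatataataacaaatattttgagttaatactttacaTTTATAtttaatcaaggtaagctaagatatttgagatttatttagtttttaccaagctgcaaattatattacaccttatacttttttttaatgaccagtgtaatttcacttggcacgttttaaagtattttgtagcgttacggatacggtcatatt
The Sirt4 stretch lies between the TSSs of Sirt4 and CG4119 (chrX:5665941-5666051, minus strand), with the summit at base 9.
Sirt4 and CG4119: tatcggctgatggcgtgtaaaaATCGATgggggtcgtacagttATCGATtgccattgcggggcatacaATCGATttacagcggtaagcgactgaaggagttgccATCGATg
The Sirt1 stretch covers 50 bp on either side of its summit (chr2L:13165353-13165453, plus strand), which replicate 4 alone matched.
Sirt1 summit: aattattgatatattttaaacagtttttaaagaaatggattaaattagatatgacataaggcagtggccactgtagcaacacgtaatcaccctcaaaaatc
The HDAC4 stretch lies in an intron and spans both of its summits (chrX:13280719-13281018, minus strand), which are at bases 252 and 49.
HDAC4 intron: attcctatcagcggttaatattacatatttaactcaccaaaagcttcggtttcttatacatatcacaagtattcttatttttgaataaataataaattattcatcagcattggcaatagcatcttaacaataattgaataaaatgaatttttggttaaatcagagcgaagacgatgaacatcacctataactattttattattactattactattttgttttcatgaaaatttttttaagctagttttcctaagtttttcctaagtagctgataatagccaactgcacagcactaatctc
For contrast, the stretch just upstream of the HDAC11 TSS (chr3R:24856244-24856344, minus strand) had no peak.
HDAC11 upstream: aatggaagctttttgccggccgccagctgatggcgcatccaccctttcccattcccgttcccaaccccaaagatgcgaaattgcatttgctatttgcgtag

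Of the 10 genes, 5 had a summit of the authors' reproducible (IDR) list within 500 bp of a TSS, namely HDAC3, Sirt1, Sirt2, Sirt4 and Sirt6. Over all protein-coding genes the share was 18.0%. These were 1 of 5 HDAC genes and 4 of 5 sirtuin genes, a difference between small families that was not tested. The other 5 genes had no such summit. In the order of signal HDAC3 came first, followed by Sirt2, Sirt6, Sirt4 and Sirt1. The IDR list of 3257 peaks was exactly the 3257 highest peaks of the pooled relaxed list, so a gene's place in it follows from its pooled rank alone. The IDR signal ran from 169 to 12853 with a median of 292, and the relaxed lists held 30000 peaks each. Signal values are the authors' own, on a scale that is not stated, and are compared only within a list. Depth is unknown, because the lists give no numbers of reads.

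**Figure D1:**
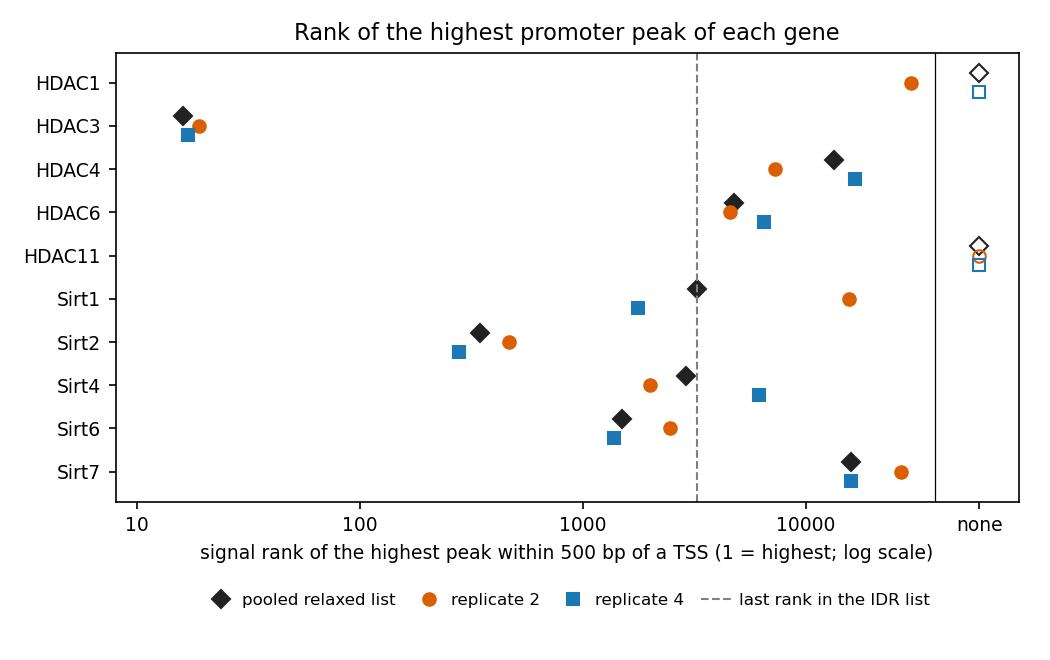
Signal rank of the highest peak within 500 bp of a TSS, on a log axis, for each gene in the pooled relaxed list (diamonds), replicate 2 (circles) and replicate 4 (squares), with open symbols where no summit lay in the window. HDAC3 ranks 16, 19 and 17, 5 genes lie at or left of the last IDR rank (3257, dashed line) in the pooled list, and HDAC11 has no summit in any list.

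The HDAC3 promoter carried one of the strongest Sry-beta peaks of the genome. HDAC3 (FBgn0025825) lies on 3R from 5472810 to 5474600 on the minus strand. Its peak, from 5474178 to 5475209, had a pooled signal of 8605 and rank 16, with the summit 89 bp upstream of the TSS. In replicate 2 the signal was 2504, at rank 19 of that list, with the summit 84 bp upstream. In replicate 4 it was 6181, at rank 17, with the summit 100 bp upstream. The 3 summits thus fell within 16 bp of each other, and the larger replicate rank was 1.12 times the smaller. The median of this ratio was 1.57 over the 2825 IDR peaks that both replicates matched to within 100 bp. HDAC3 was chosen by its pooled signal, and the pooled list is made from both replicates. High ranks in all lists thus follow in part from the choice, and the nearness of the ranks is a description only. Replicate 4 had a further summit 134 bp inside the gene, at rank 603, and neither replicate 2 nor the pooled list had a second summit at this promoter. CG45100, a protein-coding gene annotated with exactly the span of HDAC3, shares its TSS and its peak. Of the 2518 genes with an IDR promoter summit 0.834% had a higher signal than HDAC3, whose signal was 26.5 times their median of 325. The TSS of Hcs, which encodes holocarboxylase synthetase, is 299 bp away on the other strand. The HDAC3 summit was nearer to HDAC3, with 210 bp to the Hcs TSS.

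The gene next to HDAC3 on its downstream side is Snr1, on the plus strand, which encodes a subunit of the Brahma remodelling complex and carries a peak of similar height. Its summit ranked 12 in the pooled list, 29 in replicate 2 and 8 in replicate 4. It lay 74 bp upstream of the Snr1 TSS and 3837 bp from the HDAC3 summit. Among the 20 highest IDR peaks this was the only pair of neighbouring summits within 5000 bp of each other.

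Sirt2 had 2 IDR summits at its promoter. Sirt2 (FBgn0038788) lies on 3R from 20328465 to 20330915 on the plus strand. The higher summit, 237 bp upstream of the TSS, had a pooled signal of 1825 at rank 345, and the lower one, 3 bp inside the gene, had 288 at rank 1653. The 2 summits were 240 bp apart in an interval that the list gives as 20327819 to 20328599 for both. Replicate 4 gave the same pair, at -234 bp with a signal of 1660 (rank 277) and at 8 bp with 473 (rank 698). Replicate 2 also had 2 summits, but at -404 bp with a signal of 390 (rank 467) and at -204 bp with 180 (rank 916), and it had none near the TSS. Both replicates thus had a strong Sirt2 promoter peak. The summits at -204 bp in replicate 2 and -234 bp in replicate 4 both lay within 100 bp of the higher pooled summit. The other summit of each replicate, at -404 and 8 bp, differed in place. The highest one of replicate 2 lay -58 bp from the TSS of CG4360, the head-to-head gene. The nearer summit of replicate 2 was 33 bp from the higher pooled one, and its rank was 3.31 times that of replicate 4. A larger ratio was found for 11.9% of the matched IDR peaks. CG4360 starts 462 bp from Sirt2, and the higher pooled summit was 225 bp from that TSS and 237 bp from that of Sirt2, so it lay almost midway between them. In the signal order of genes with an IDR promoter summit, 17.3% were above Sirt2.

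The Sirt6 peak was of middling height and fell nearer to the neighbouring gene. Sirt6 (FBgn0037802) lies on 3R from 10255349 to 10261849 on the minus strand, 274 bp from the TSS of pont, which encodes the ATPase Pontin. The peak, from 10261793 to 10262282, had a pooled signal of 310, against 292 for the median IDR peak, and rank 1493. Its signal was 86.1 in replicate 2, at rank 2458, and 229 in replicate 4, at rank 1380. The pooled summit was 189 bp upstream of Sirt6 and 85 bp upstream of pont. The replicate summits were 254 and 203 bp upstream of Sirt6, so these lay between the 2 genes. A second, lower summit lay inside pont, at -391 bp from Sirt6 in the pooled list (rank 11195) and at -413 bp in replicate 4 (rank 14389). Within its span Sirt6 carries an annotated I element in 2 parts, from 10255433 to 10257395 and from 10257396 to 10260802. No list had a body summit in Sirt6, and how reads from such repeats were treated is not known here.

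Sirt4 and Sirt1 were near the end of the IDR list, and each was among the 3257 highest peaks of one replicate only. Sirt4 (FBgn0029783) lies on X from 5664628 to 5665940 on the minus strand. Its peak, from 5665798 to 5666287, had a pooled signal of 185 at rank 2905. It had a signal of 98.7 at rank 1990 in replicate 2, and 69.0 at rank 6182 in replicate 4. The pooled summit was 103 bp upstream of Sirt4 but 9 bp upstream of CG4119, whose TSS is 112 bp away. Sirt1 (FBgn0024291) lies on 2L from 13165564 to 13169551 on the plus strand. Its peak, from 13165158 to 13165647, had a pooled signal of 170 at rank 3255, so that 2 peaks of the list ranked lower. In replicate 4 its signal was 182 at rank 1773, 181 bp upstream of the TSS. In replicate 2 the nearest summit was 255 bp from the pooled one and inside the gene, with a signal of 25.5 at rank 15593. Of all IDR peaks, 9.73% had no replicate 2 summit within 100 bp and 3.90% had no replicate 4 summit. DnaJ-H, which encodes a J-domain chaperone, has 2 TSSs on the other strand, one 546 bp upstream of the Sirt1 TSS and one 508 bp inside Sirt1. The Sirt1 summit was 385 bp from the upstream one and lay within the annotated span of DnaJ-H.

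Taken by replicate, 4 genes had a summit among the 3257 highest peaks of replicate 2 within 500 bp (HDAC3, Sirt2, Sirt4 and Sirt6), where all protein-coding genes gave 18.5%. In replicate 4 there were also 4 (HDAC3, Sirt1, Sirt2 and Sirt6), where all genes gave 17.4%. HDAC3, Sirt2 and Sirt6 were thus found in both, Sirt4 in replicate 2 and Sirt1 in replicate 4.

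**Figure D2:**
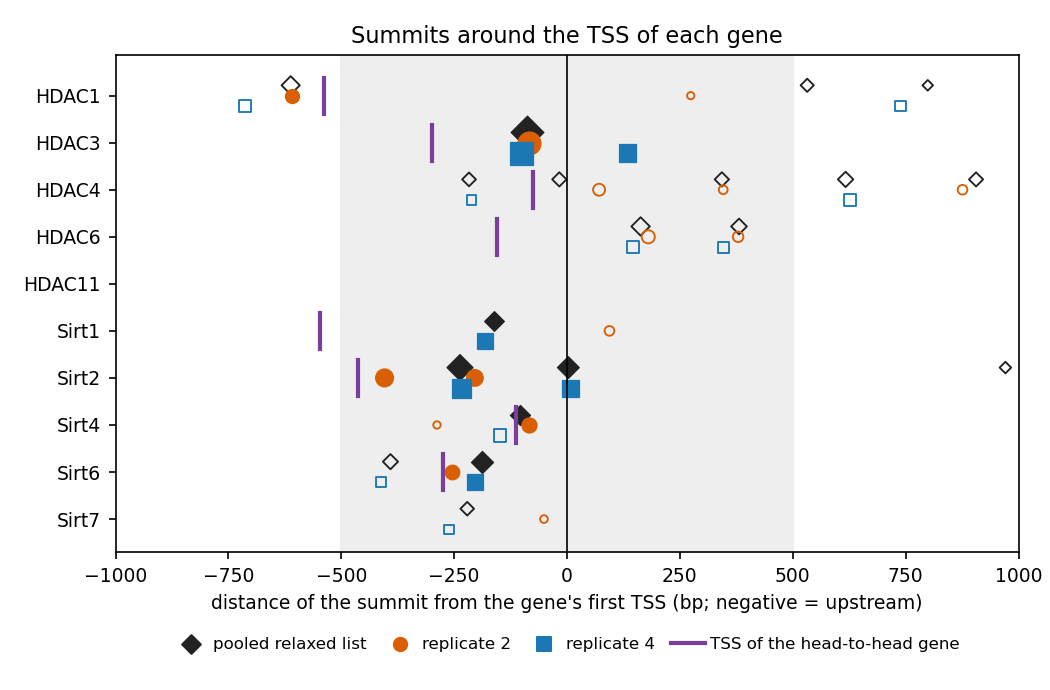
Position of each summit within 1000 bp of the first TSS of each gene (bp, negative upstream) in the pooled list (diamonds), replicate 2 (circles) and replicate 4 (squares); symbols are filled where the rank in the own list is 3257 or better, larger symbols rank higher, the grey band is 500 bp on either side and purple bars mark the TSS of the head-to-head gene. The highest HDAC3 summit of each list lies at -100 to -84 bp, and the Sirt2 summits inside the grey band spread from -404 to 8 bp. The HDAC1 summits more than 500 bp upstream lie past the nearest TSS of Src64B.

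Head-to-head genes were frequent in the family. A protein-coding gene on the other strand started within 1000 bp upstream of 8 of the 10 genes, against 36.2% of all protein-coding genes. All 5 genes with an IDR promoter summit were among these 8, and so were HDAC1, HDAC4 and HDAC6, which had none. Over all genes the IDR share was 34.4% with such a neighbour and 8.77% without one. HDAC11 and Sirt7, the 2 genes without such a neighbour, had no IDR summit. At Sirt2, Sirt4 and Sirt6 the highest summit was nearer to the neighbour's TSS, and at HDAC3 and Sirt1 it was nearer to the deacetylase gene. To which gene of a pair a shared peak belongs cannot be told apart in these files.

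HDAC6, HDAC1, Sirt7, HDAC4 and HDAC11 had no IDR summit at a promoter, and most of them had weak summits in the relaxed lists. Of the 10 genes, 8 had a pooled relaxed summit within 500 bp, where all protein-coding genes gave 53.1%. In replicate 2 the count was 9 (54.6% of all genes) and in replicate 4 it was 8 (50.4%). HDAC6 (FBgn0026428, X from 15333310 to 15340360) came nearest to the IDR list, with a pooled signal of 127 at rank 4762. Its summit was 163 bp downstream of the first of its 6 TSSs, in the 5′ UTR. The replicates gave nearly the same place, 180 bp with a signal of 56.4 at rank 4593 in replicate 2 and 147 bp with 66.4 at rank 6496 in replicate 4. A second, lower HDAC6 summit was also found in every list, 381 bp downstream at rank 9784 in the pooled list, 379 bp at rank 12008 in replicate 2 and 346 bp at rank 10340 in replicate 4.

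HDAC1 (FBgn0015805, 3L from 4626734 to 4629467) had no pooled summit within 500 bp. The highest pooled summit in or within 1000 bp of the gene was 612 bp upstream, with a signal of 123 at rank 5025, outside the IDR list. It lay 10 bp downstream of one of the TSSs of Src64B, a Src family kinase gene on the other strand. Another TSS of Src64B is closer to HDAC1, at 538 bp. The summit ranked 3148 in replicate 2, and the summit 713 bp upstream in replicate 4 ranked 8198. Within the window HDAC1 had 1 replicate 2 summit, at rank 29589 of 30000. Sirt7 (FBgn0039631, 3R from 29055927 to 29059204) had a pooled summit 221 bp upstream with a signal of 55.6 at rank 15884, close to the median of 57.7 for that list. In replicates 2 and 4 its highest promoter summits ranked 26867 and 15956. HDAC11 (FBgn0051119, 3R from 24854496 to 24856243) was the only member with no summit in the window in any list. Its nearest summit was 4217 bp from the TSS in the pooled list, 4466 bp in replicate 2 and 4485 bp in replicate 4, and 20445 bp in the IDR list.

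HDAC4 was the only member with IDR summits in its body, defined as the gene span more than 500 bp from every TSS of the gene. Over all protein-coding genes 4.64% had such a summit, and 28.2% of the 893 genes at least as long as HDAC4. HDAC4 (FBgn0041210) lies on X from 13262687 to 13285632 on the minus strand, is 22946 bp long and is the longest of the 10. The higher summit was 4865 bp downstream of the first TSS, in a peak from 13280541 to 13280951 with a pooled signal of 1006 at rank 529. The lower one was 4662 bp downstream, in a peak from 13280893 to 13281206 with 752 at rank 639. The 2 peaks overlap by 59 bp and their summits are 203 bp apart. Of all IDR summits 21.8% had another within 250 bp. Both lie in an intron that runs from 13276548 to 13282165 in 4 transcripts, and no other annotated gene overlaps them.

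Both HDAC4 summits were found in each replicate, and their balance differed. In replicate 4 the signals were 802 at rank 487 and 662 at rank 553, at 20 and 16 bp from the pooled summits. In replicate 2 they were 216 at rank 749 and 79.3 at rank 2772, at 20 and 21 bp. The lower summit thus had 5.01 times the rank in replicate 2 that it had in replicate 4, and 5.20% of matched IDR peaks had a larger ratio. Of the 489 IDR summits at least as far from any protein-coding TSS, the HDAC4 summits were at ranks 27 and 35 by signal.

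Weak summits were frequent along HDAC4. Apart from the IDR pair the gene held 13 pooled relaxed summits, with signals from 37.8 to 72.0 and ranks from 10592 to 28356. With the pair this made 6.54 pooled summits per 10 kb, where the median of the 893 genes at least as long was 1.71. Replicate 2 had 13 summits inside the gene and replicate 4 had 18. The HDAC4 promoter, which it shares with CG15743 at 75 bp, had only such weak summits, the highest at rank 13448 in the pooled list, 7305 in replicate 2 and 16649 in replicate 4. Of the 10 genes, 3 had a relaxed body summit in the pooled list (HDAC1, HDAC4 and Sirt2), a share close to the 28.5% of all genes. Those of HDAC1 ranked 17468 and 28137 and that of Sirt2 ranked 23809. Replicate 2 had body summits in HDAC3 (ranks 12457 and 27489), Sirt1 (rank 21664) and Sirt7 (ranks 20727 and 26305), and replicate 4 had one in HDAC1 (rank 12368).

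**Figure D3:**
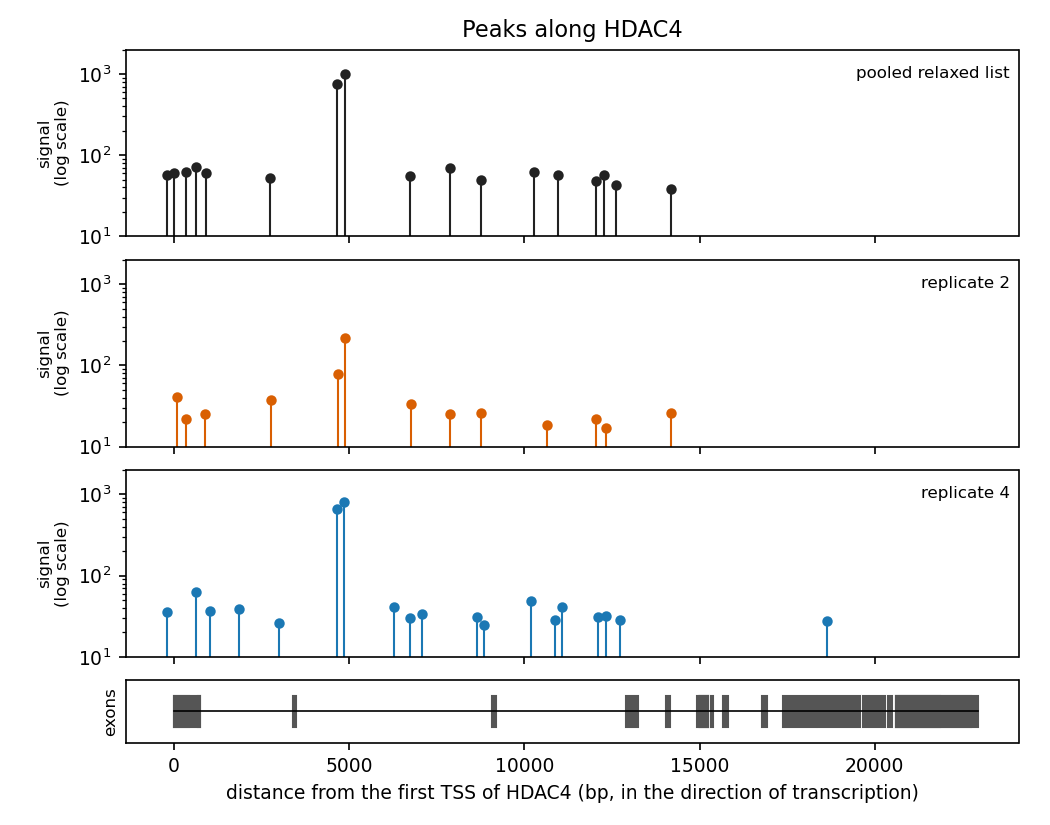
Signal of each peak (log axis) against the distance of its summit from the first HDAC4 TSS in bp, for the pooled relaxed list, replicate 2 and replicate 4, with the annotated exons of all transcripts as boxes below. The pair at 4662 and 4865 bp stands above the other summits in each list, and the other pooled summits have signals of 37.8 to 72.0.

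Each searched motif had an exact match at 1 or at none of the family's 8 IDR summits. These counts are too small to set against the shares of all IDR summits given beside them. The Sry-beta core AGAGATG was within 50 bp of 1 of the 8 IDR summits at or in these genes, that of Sirt4, and at 3.19% of all 3257 IDR summits. The match began 34 bp upstream of the summit on the Sirt4 strand, in the 5′ UTR of CG4119 (chrX:5666059-5666088, minus strand).
Sirt4 core site: gccgttgctctAGAGATGgtagctgctggc
The DRE was at the lower Sirt2 summit only, which replicate 4 alone matched, and at 3.32% of all IDR summits. The site lies across the Sirt2 TSS (chr3R:20328452-20328481, plus strand).
Sirt2 DRE site: tagcctaaaccTATCGATAgttgtcagaac
GAGAG was at the HDAC3 summit, in 2 copies, and at 9.33% of IDR summits. TATAAA was at the Sirt6 summit, also in 2 copies, and at 19.7% of IDR summits. TAGCTA (7.95% of IDR summits), GGTCACAC (1.97%) and CACGTG (0.982%) were at none of the 8. The 2 HDAC4 summits, the higher Sirt2 summit and the Sirt1 summit held none of the 7 motifs.

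In the promoters themselves, taken from 250 bp upstream to 50 bp downstream of the first TSS, TAGCTA was found in HDAC3, 15 bp upstream of the TSS (position -15), and in HDAC4 (7.40% of all promoters). The DRE was found in Sirt2 and, in 2 copies at positions -223 and -17, in HDAC4 (9.36% of all promoters). One of the HDAC4 copies stands in the 74 bp between the TSSs of HDAC4 and CG15743 (chrX:13285633-13285706, minus strand), a promoter with weak relaxed summits only.
HDAC4 and CG15743: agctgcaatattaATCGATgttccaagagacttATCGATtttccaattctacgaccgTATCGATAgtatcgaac
AGAGATG was in Sirt4 only (4.93% of all promoters), GGTCACAC in HDAC1 (7.70%), GAGAG in HDAC3 and HDAC6 (29.8%), TATAAA in HDAC1, HDAC4, HDAC11, Sirt6 and Sirt7 (45.9%) and CACGTG in none (4.23%). Summit windows of the family were mostly AT-rich. Their GC content was 16.8% at Sirt6, 23.8% and 29.7% at HDAC4, 29.7% at Sirt1, 29.7% and 31.7% at Sirt2, 38.6% at HDAC3 and 53.5% at Sirt4. IDR windows were mostly AT-rich as a whole, with a median of 35.6% and quartiles of 29.7% and 42.6%. Only 0.645% of IDR windows had a lower GC content than that of Sirt6, and 95.8% were lower than that of Sirt4.

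Genes that act with or against the deacetylases were compared from 3 lists written from general knowledge with results of these data known. Of 17 matched corepressor partners 7 had an IDR promoter summit, of 12 acetyltransferases and their Ada adaptor subunits 5 did, and of 8 bromodomain proteins 4 did, beside the 18.0% of all genes given above. The partners of HDAC1 with a summit were Sin3A, the scaffold of its namesake complex (signal 255, rank 1927), and the NuRD or dMec subunits MTA1-like (304, rank 1529), MBD-like (593, rank 766) and MEP-1 (297, rank 1571). The NuRD remodeller Mi-2 was outside the list, with a pooled rank of 5671. Of the HDAC3 complex, ebi, which encodes a TBL1-type WD40 protein, had a summit (283, rank 1703), while Smr, the SMRTER gene itself, had no pooled summit in the window. The gene of the corepressor Groucho, gro, had a signal of 292 (rank 1617). Mef2, the HDAC4 partner, had a signal of 570 with ranks of 791 in the pooled list, 688 in replicate 2 and 936 in replicate 4. These 7 partners had signals of 255 to 593, with a median of 297.

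The acetyltransferase list held the strongest of these peaks. For nej, the CBP acetyltransferase gene, the summit 103 bp upstream had a signal of 4720, with ranks of 110 in the pooled list, 66 in replicate 2 and 122 in replicate 4. Ada2b, an adaptor of the SAGA complex, had 2958 and ranks of 232, 138 and 265. Hat1, which acetylates newly made histones, had 2037 and ranks of 313, 372 and 299. Tip60 (437, rank 1011) and Gcn5 (241, rank 2068) were lower, and the Tip60 summit was nearer to the TSS of tyf. The bromodomain genes with a summit were dikar (546, rank 815), brm (369, rank 1234), Br140 (337, rank 1358) and Acf (199, rank 2623). The Br140 and Acf summits were nearer to Incenp and Mccc1, and those of MTA1-like and MBD-like to Sec23 and AP-1mu. None of the 3 lists held a peak as high as that of HDAC3. The family was chosen by that peak's pooled signal, so its place above the lists is a description only.

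**Figure D4:**
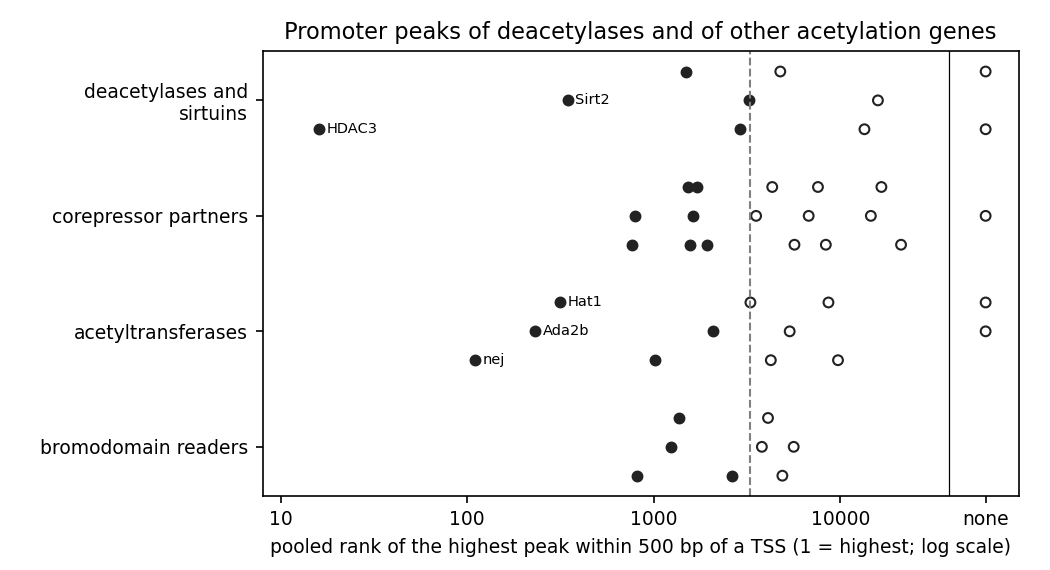
Pooled signal rank (log axis) of the highest peak within 500 bp of a TSS for each gene of the family and of the 3 lists; filled points are in the IDR list (left of the dashed line at rank 3257), open points are not, "none" marks genes with no summit in the window, and genes at rank 700 or better are named. HDAC3 at 16, by whose pooled signal the family was chosen, is the leftmost point. It is followed by nej at 110, Ada2b at 232, Hat1 at 313 and Sirt2 at 345.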

How the data were processed

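ChIP-seq peak lists of 2 libraries, replicates 2 and 4 of 1 group, were used. Per the labels, chromatin was sonicated to 200 to 800 bp. The authors deposited 4 narrowPeak lists on dm6. By the readme files deposited with them, the relaxed lists were made from replicate 2, replicate 4 or both, each time with 1 shared control, and fed into the IDR step. No source used here names the aligner, the peak caller or the threshold of that step. Column 7, the authors' signal value, served for ranks and comparisons inside each list alone. Column 9, −log10 q as deposited by the authors, was not used. Depth is unknown, so no interval was formed. Summits, set to the last base of a peak where they fell past it, were compared with TSSs of protein-coding genes (Ensembl release 115) in Python 3.11.15 with numpy 2.4.6 and pandas 2.3.3. Arm names and peak ends fitted the release 6 assembly. The highest summit within 500 bp of any TSS was a gene's promoter peak. A replicate summit within 100 bp of the pooled one was taken as the same peak. Replicate lists were also limited to their 3257 highest peaks. Calls and motif matches were checked on simulated data. Members, lists and motifs were chosen with earlier results of these data known. Named genes are the 10 members, their head-to-head or nearest genes, list genes with an IDR promoter summit and, for each member with one, the 2 genes with the most similar ranks. Other genes (Snr1, CG45100, Mi-2, Smr and the other corepressor partners outside the IDR list) were named after their values were seen. No test was run. Alternatives covered windows, overlap, signal threshold, list length, TSS choice, match distance and single replicates.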

Additional observations from a re-analysis of the deposited data

How the results depend on the processing

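Of 29 alternative counts, 27 were within 1.5 times the reported ones. Members with an IDR promoter summit numbered 5 with 250 or 1000 bp windows, with interval overlap and with the first TSS alone, and 3 above the median signal (HDAC3, Sirt2 and Sirt6). Leaving out 1 replicate gave 4 for each replicate left out; relaxed promoter summits gave 8 to 9, and the lists 8 to 10, 5 to 6, and 4. Allowing 1 mismatch in AGAGATG, chosen after seeing the data, gave 4 summit windows in place of 1. Ranks of weak peaks rest on unknown depth. No paired analysis was possible because the series has 1 group.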

Other observations

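The palindrome ATCGAT, the inner part of the DRE, was looked at after the printed sequences had been seen. It occurred 5 times in the HDAC4 promoter window of 250 bp upstream to 50 bp downstream, and at least as many copies were in 0.0501% of all promoters. It occurred 4 times in the Sirt4 window (at least as many in 0.286% of promoters) and 3 times in that of Sirt7 (1.35%), while 23.3% of promoters held at least 1. The pooled promoter ranks of these 3 genes were 13448, 2905 and 15884, and of these only that of Sirt4 was in the IDR list. Sirt2, with rank 345, and HDAC6, with rank 4762, held 1 copy each, and HDAC3, with rank 16, held none.

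With at most 1 mismatch the core AGAGATG was within 50 bp of 4 of the 8 IDR summits of the family, at HDAC3, Sirt1, Sirt2 and Sirt4, and of 25.9% of all IDR summits. This count, too, is too small to set against that share, and no difference was tested.

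Genes with the most similar promoter ranks over the pooled list, replicate 2 and replicate 4 were found among 5971 or 5972 genes with a summit in all 3 lists. For HDAC3 they were Kaz and CG43273, which share a peak with ranks of 14, 21 and 16. For Sirt2 they were SF1, with ranks of 330, 489 and 293, and a gene with the same ranks. For Sirt6 they were l(3)73Ah (1565, 2346 and 1364) and Herc4 (1508, 2340 and 1300). For Sirt4 they were klar (2995, 1917 and 6221) and ex (3112, 2109 and 6490). For Sirt1 they were Rab4 (3283, 15013 and 2035) and bif (2792, 14003 and 2162). The replicate 2 rank used for Sirt1 was that of a summit 255 bp from the pooled one. This likeness is of ranks in 3 lists, of which the pooled one contains the other 2. The genes were picked by these ranks, so shared differences between replicates follow from the choice.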
